A study of Homo sapiens with 4 samples.

Results

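The 7 genes described here are the ID genes ID1, ID2, ID3 and ID4, the inhibitory SMAD genes SMAD6 and SMAD7, and BAMBI. They were taken by Entrez Gene identifier from the 19801 genes listed in every library, and all 7 were listed: ID1 (3397, on chromosome 20), ID2 (3398, chromosome 2), ID3 (3399, chromosome 1), ID4 (3400, chromosome 6), SMAD6 (4091, chromosome 15), SMAD7 (4092, chromosome 18) and BAMBI (25805, chromosome 10). LNCaP is an established, androgen-sensitive human prostate cancer cell line. The cells were transfected for 24 h with empty vector or with AR1-651, a truncated construct without a ligand-binding domain, and each culture was then left without AIL (ailanthone, a plant-derived natural compound) or given it during the following 12 h. One RNA-seq library was made per condition (empty vector or AR1-651, each without and with AIL). Differences between conditions therefore lack any measure of replicate error, and no p-values were computed. The AIL dose is not used here, and the labels mention no selection of transfected cells.

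Bone morphogenetic proteins (BMPs) and TGF-beta bind paired type I and type II receptor kinases, which phosphorylate receptor SMADs that enter the nucleus with SMAD4. ID genes are classic targets of the BMP branch and encode helix-loop-helix proteins without a DNA-binding region, which capture E proteins and keep them from DNA. SMAD6, SMAD7 and BAMBI are induced by the pathway and damp it again: the first acts mainly on BMP receptors and their SMADs, the second on receptors of both branches, and BAMBI encodes a membrane pseudoreceptor without a kinase domain.

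Promoter sequence is shown for the members whose 250 bases upstream of the RefSeq start held a BMP-type GC box, GGCGCC, or a half-site of the androgen response element, AGAACA, with both strands searched. Numbering counts back from the RefSeq start on GRCh38.p14, and capitals mark the matches. The stretch of BAMBI is chr10:28677282-28677351, plus strand, positions -239 to -170, and holds 3 matches to GGCGCC. The SMAD6 stretch is chr15:66702122-66702187, plus strand, positions -114 to -49, and the ID1 stretch is chr20:31605079-31605144, plus strand, positions -210 to -145, each with 1 match to AGAACA read on the other strand as TGTTCT.
BAMBI: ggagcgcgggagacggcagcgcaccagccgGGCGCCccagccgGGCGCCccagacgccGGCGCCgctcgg
SMAD6: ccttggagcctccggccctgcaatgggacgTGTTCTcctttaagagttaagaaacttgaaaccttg
ID1: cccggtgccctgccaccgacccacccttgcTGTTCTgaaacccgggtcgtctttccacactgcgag

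GGCGCC stood in 1 of the 9 promoter windows of the members (SMAD7 has 3 starts), against 16.4% of 35116 windows of all genes, and AGAACA in 2 of 9, against 12.4%. The E-box CANNTG, the sequence that E proteins bind, stood in 4 of 9 windows against 61.8%, and TGACGT, a core shared by cyclic AMP response elements, in 0 of 9 against 7.10%. The window of ID3 held none of these 4 motifs. These are matches of letters and not measured sites, and no binding data were analysed here.

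Expression is given as RPKM as deposited, a read density corrected for the length of the exons and for how many reads of the library were mapped. Depth was estimated from the values themselves: among genes with low RPKM, the product of RPKM and transcript length recurred in whole-number steps, and 67.1 to 73.3% of such genes lay within 0.15 of a step. The step was chosen as the one that best fitted these same values. Values without steps would also fall partly within that window, and their share was not computed. One step was taken to be 1 read, an assumption that put the libraries at about 4830000 to 5710000 reads. Read numbers below are estimates from these steps and one transcript length per gene, and the 95% intervals built from them cover counting error only. They compare single libraries, not conditions. Ribosomal protein genes took 33.0% of the summed RPKM in the AR1-651 library and 22.3 to 25.5% in the others. All 8 luminal prostate markers analysed were detected, with summed RPKM between 1705 and 3909. Of 3 basal markers looked up, KRT5 and TP63 were not listed in the libraries, and KRT14 stood at 0.21 or below. The 4 fibroblast markers summed to 2.28 to 5.02. Of 3 leukocyte markers CD3E was not listed, and the other 2 summed to 8.67 to 12.7, mostly CD68. KLK3, which encodes prostate-specific antigen and is induced by androgen, had RPKM of 286.6 and 302.6 without and with AIL in empty vector cells and 1442 and 581.5 in AR1-651 cells.

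BAMBI was the most abundant member in 3 of the 4 libraries. Its RPKM was 15.8 in empty vector cells (about 152 reads), 81.6 once AIL was added (740 reads), 7.02 in AR1-651 cells (73 reads) and 47.2 once these received AIL (506 reads). Both libraries with AIL lay above both without it, and within each pair the library labelled AR1-651 was the lower one. In the AR1-651 library ID2, at 8.32, had the higher value, but the counting intervals of the 2 genes overlapped (6.40 to 10.7 for ID2 and 5.49 to 8.80 for BAMBI).

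ID2 was the most abundant ID gene, with RPKM of 7.36 in empty vector cells, 12.4 once AIL was added, 8.32 in AR1-651 cells and 11.1 once these received AIL, from 51 to 86 reads. The libraries with AIL were the higher ones in both backgrounds. ID3 had RPKM of 0.79 in empty vector cells (5 reads), 5.87 once AIL was added (35 reads), 0.29 in AR1-651 cells (2 reads) and 4.67 once these received AIL (33 reads). ID3 was near the detection limit in the libraries without AIL and clearly counted in those with it.

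ID1, usually regarded as a sensitive readout of BMP signalling, stayed low throughout, with RPKM of 1.00 and 1.48 without and with AIL in empty vector cells and 0.92 and 1.96 in AR1-651 cells. These values rest on 6 to 12 reads, and the 4 counting intervals overlapped. ID4, the fourth family member, had RPKM of 0.05, 0.05, 0.14 and 0.31 in that order, or 1 to 4 reads. It is described by these values only, since at this depth no difference was detectable.

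SMAD7 had RPKM of 3.61 in empty vector cells, 5.88 once AIL was added, 2.28 in AR1-651 cells and 2.71 once these received AIL, from 29 to 65 reads. The empty vector + AIL library was the highest, and the lowest neighbours in the order, AR1-651 and AR1-651 + AIL, had overlapping counting intervals. SMAD6 ran the other way with AIL. Its RPKM was 4.73 in empty vector cells, 2.86 once AIL was added, 3.61 in AR1-651 cells and 2.23 once these received AIL, from 33 to 64 reads. Both values with AIL lay below both without it, but counting intervals overlapped. That of empty vector + AIL (1.99 to 3.94) overlapped those of empty vector (3.67 to 6.09) and AR1-651 (2.73 to 4.77).

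**Figure D1:**
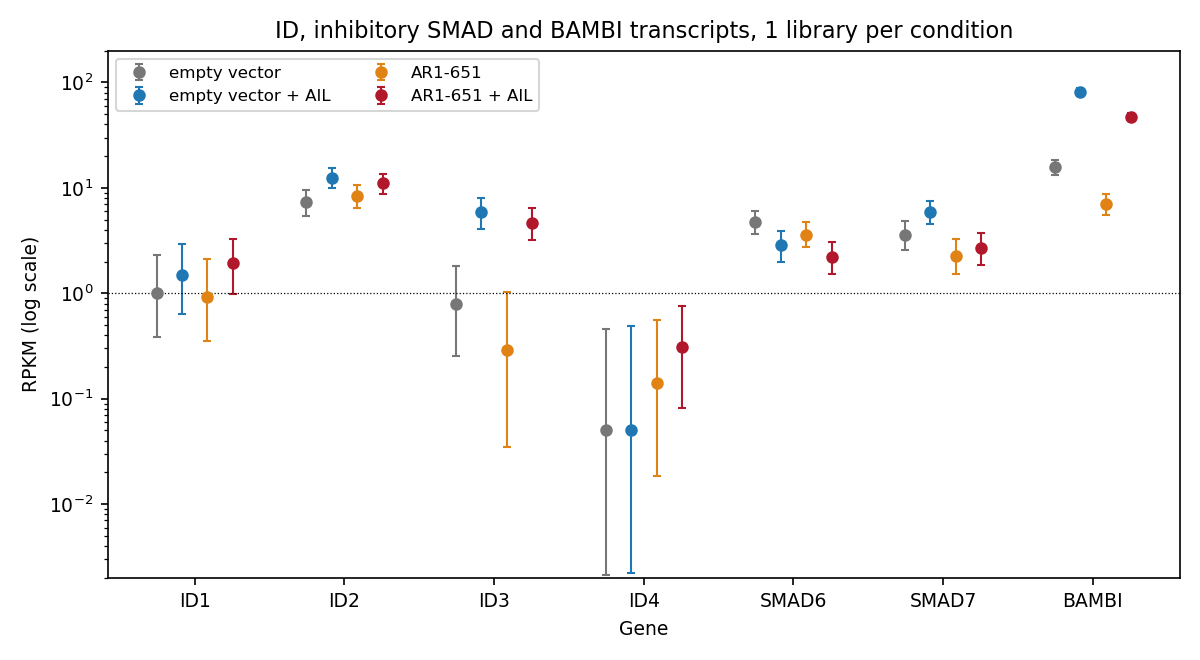
RPKM on a log axis of the 7 genes in the 4 libraries, 1 point per library, with bars for the 95% counting interval from the estimated reads and a dotted line at RPKM 1. BAMBI and ID3 are higher in both libraries with AIL, SMAD6 is lower in both with bars that partly overlap, and the bars of ID1 and ID4 overlap across all 4 libraries.

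To ask what AIL did without the construct, empty vector + AIL was compared with empty vector on the scale log2(RPKM + 1), on which changes of weakly expressed genes come out too small. The 14626 genes whose RPKM reached 1 in any library were tested, and a difference of 2-fold or more on that scale was called. ID4 did not reach this level, and ID3 reached it only through the libraries with AIL. A higher value of ID3 with AIL was therefore built into its being tested. Of the 6 members tested, 2 were at least 2-fold higher, BAMBI and ID3, while 9.53% of all genes tested were, and 0 were at least 2-fold lower, while 9.03% of all genes were. The median change was 0.63 for the 6 members and -0.02 for all genes. The members were chosen with earlier results of these data known, so such shares and medians are a description and not a test.

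BAMBI was higher by 2.29 on the log2 scale, a 5.15-fold ratio of RPKM (95% counting interval 4.33 to 6.20), which ranked 133 among the 14626 genes from the top. ID3 was higher by 1.94, with a ratio of 7.43 (2.90 to 24.3), larger than that of BAMBI but based on 5 reads in the empty vector library. ID2 changed by 0.68 (ratio 1.68, 1.19 to 2.47) and SMAD7 by 0.58 (1.63, 1.10 to 2.48), both with counting intervals above 1 and both below the 2-fold threshold. SMAD6 changed by -0.57 (ratio 0.605, 0.386 to 0.912), the only one of the 6 with a lower value. The change of ID1, 0.31 (ratio 1.48, 0.431 to 4.95), was not detectable at this depth.

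With the construct present, AR1-651 + AIL was compared with AR1-651. BAMBI and ID3 were again the 2 of 6 members at least 2-fold higher, against 14.9% of all genes, and 0 were at least 2-fold lower, against 5.74%. ID3 was again tested only through its values with AIL, which built in its direction. The median change was 0.50 for the members and 0.13 for all genes. BAMBI was higher by 2.59, a 6.72-fold ratio (5.26 to 8.74), and ranked 83 from the top. ID3 was higher by 2.14, and its ratio of 16.1 has a wide interval (4.10 to 138) because only 2 reads were estimated in the AR1-651 library.

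SMAD6 changed by -0.51 (ratio 0.618, 0.380 to 0.952) and was again the only member with a lower value. ID2 changed by 0.38 (ratio 1.33, 0.948 to 1.87), SMAD7 by 0.18 (1.19, 0.697 to 1.99) and ID1 by 0.62 (2.13, 0.675 to 6.31), and all 3 intervals included 1. None of the AIL changes of a member turned in sign under the scalings tried, although that of ID2 in AR1-651 cells came to 0.03 once the trend of change with transcript length and GC content was removed and that of SMAD7 to 0.02 under median-ratio scaling.

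**Figure D2:**
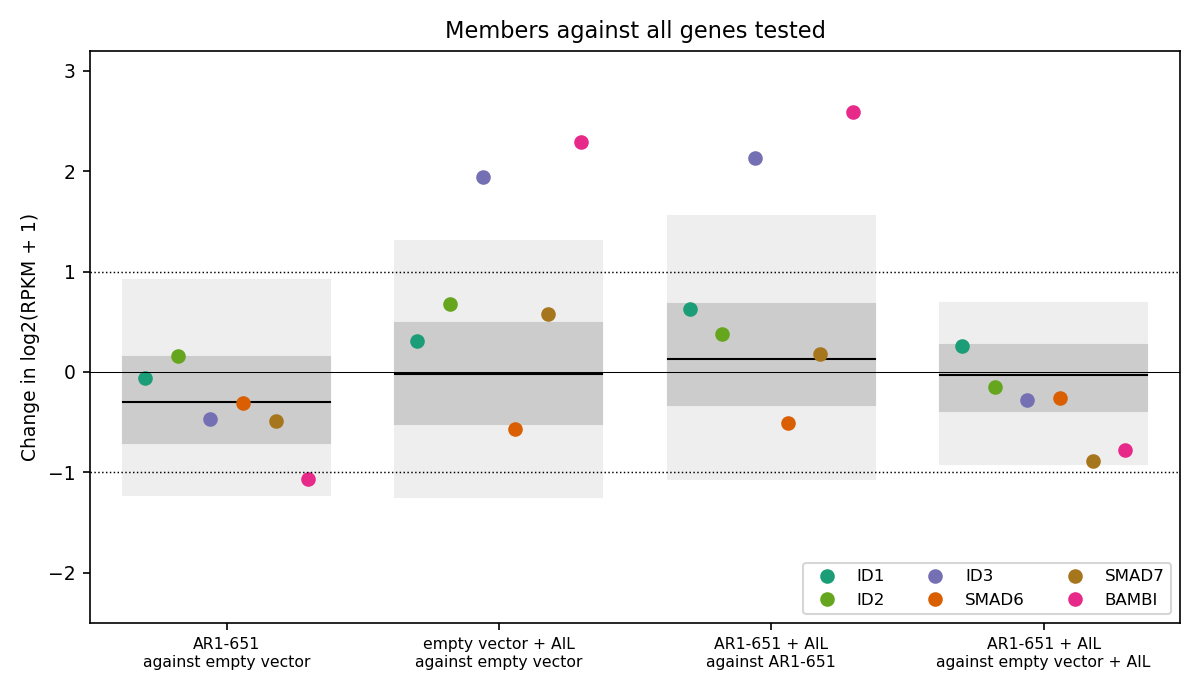
Change in log2(RPKM + 1) of the 6 members tested, 1 point each, in the 4 comparisons. The light band spans the 5th to 95th percentile of all 14626 genes, the dark band the 25th to 75th, the black line is their median, and dotted lines mark 2-fold. BAMBI and ID3 lie above the light band in both comparisons with AIL, while in the comparisons of AR1-651 with empty vector the members lie within it.

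The changes with AIL in the 2 backgrounds come from separate pairs of libraries. Set side by side, AR1-651 minus empty vector, they differed by 0.29 for BAMBI, 0.20 for ID3, 0.31 for ID1, 0.06 for SMAD6, -0.30 for ID2 and -0.40 for SMAD7. Under median-ratio scaling that of SMAD6 turned to -0.11 and that of BAMBI came to 0.11, and with a pseudocount of 0.1 that of ID3 came to 0.87. With 1 library per condition these differences could not be tested. BAMBI and ID3 were at least 2-fold higher in both backgrounds, as were 830 of the 14626 genes (5.67%), but ID3 was tested only through its values with AIL.

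To ask what AR1-651 changed, the library labelled AR1-651 was compared with that labelled empty vector. Of the 6 members 1, BAMBI, was at least 2-fold lower, where 11.6% of all genes were, and 0 were at least 2-fold higher, where 4.01% were. The whole distribution was shifted: the median of all genes was -0.30 as deposited and -0.08 after median-ratio scaling, so changes are also given relative to the median as deposited. BAMBI was lower by 1.07 on the log2 scale, a ratio of 0.443 (0.331 to 0.590). Relative to the median of all genes its change was -0.77, and after median-ratio scaling it was -0.83, which is no longer 2-fold.

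SMAD7 changed by -0.49 (ratio 0.632, 0.383 to 1.05), or -0.19 relative to the median. ID3 changed by -0.47, or -0.17 relative to the median, and by -1.19 with a pseudocount of 0.1, which is past 2-fold. Its RPKM ratio was 0.367 (0.0352 to 2.26), from 5 and 2 reads, so a difference was not detectable at this depth. SMAD6 changed by -0.31 (ratio 0.763, 0.521 to 1.12), which was -0.01 relative to the median and 0.17 after the length and GC trend was removed. ID2 changed by 0.16, or -0.03 with that trend removed, and ID1 by -0.06, or 0.07 after median-ratio scaling, so no direction is given for these 3 genes.

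Among cells given AIL, AR1-651 + AIL was compared with empty vector + AIL. Of the 6 members 0 were at least 2-fold higher (1.46% of all genes) and 0 at least 2-fold lower (3.53%), with a median of -0.27 against -0.03 for all genes. SMAD7 had the largest change, -0.89 (ratio 0.461, 0.293 to 0.697), followed by BAMBI at -0.78 (ratio 0.578, 0.515 to 0.648). Both counting intervals lay below 1, and both changes stayed below 0 under every scaling tried, SMAD7 between -1.09 and -0.56 and BAMBI between -0.80 and -0.65. The changes of ID1 (0.26), ID2 (-0.15), ID3 (-0.28) and SMAD6 (-0.26) were smaller, and that of SMAD6 turned to 0.30 when the length and GC trend was removed. The change in this comparison fell with GC content across genes (Spearman rho = -0.608 over 14005 genes, which are not independent replicates), and the GC content of the member transcripts ran from 44.2% for ID2 to 64.6% for SMAD6.

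Around the members, 89 genes of the BMP and TGF-beta pathways were examined in 9 lists, of which 80 were listed in the libraries and 56 were tested. With AIL, 7 of the 56 were at least 2-fold higher and 2 lower in empty vector cells, with a median of -0.05, and 11 were higher and 2 lower in AR1-651 cells, with a median of 0.28. Of all genes tested, 9.53% were higher and 9.03% lower in empty vector cells, and 14.9% higher and 5.74% lower in AR1-651 cells. In both backgrounds 6 of the 56 were higher, or 10.7%, against 5.67% of all genes, and 1 was lower, or 1.79%, against 2.93%. The lists were chosen with earlier results of these data known, so these shares are a description and not a test.

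Among ligands, BMP6 was the one called with AIL on this scale. Its RPKM was 13.4 in empty vector cells, 3.52 once AIL was added, 11.1 in AR1-651 cells and 2.41 once these received AIL, changes of -1.67 and -1.82. GDF15, a stress-responsive member of the TGF-beta superfamily and the most abundant ligand transcript, had RPKM of 63.2, 117.4, 93.2 and 93.9 in the same order. INHBB, which encodes an activin subunit, had 2.43, 2.24, 0.78 and 0.60. Of the 10 ligand genes tested, 0 were at least 2-fold higher with AIL on the log2(RPKM + 1) scale. The shares of all genes were 9.53% in empty vector cells and 14.9% in AR1-651 cells. However, 2 weakly expressed ligands, named after their values were seen, went up in RPKM and passed 2-fold with a pseudocount of 0.1. BMP4 had RPKM of 0.11 and 1.19 without and with AIL in empty vector cells (1 and 10 reads) and 0.21 and 1.31 in AR1-651 cells (2 and 13 reads), changes of 0.98 and 0.93, or 2.62 and 2.19 with that pseudocount. TGFB3 had 0.23 and 1.37, then 0.05 and 0.75, changes of 0.95 and 0.74, or 2.16 and 2.50. No transcript length was matched to TGFB3, so its reads were not estimated. Both genes reached RPKM 1, the limit for testing, only in libraries with AIL, so a higher value there was built into their selection.

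On the log2(RPKM + 1) scale 1 of the 12 type I and type II receptors and co-receptors tested was called with AIL in empty vector cells, 1 with AR1-651, and 0 in the other comparisons. Both calls were of lower values, against 9.03% of all genes lower with AIL in empty vector cells and 11.6% with AR1-651. ACVR2B and ENG reached RPKM 1 only in the empty vector library. None of the 4 type I receptors tested was called in any comparison on the log2(RPKM + 1) scale. The most abundant type I receptor, ACVR1B, which binds activin, had RPKM of 9.82 and 9.68 without and with AIL in empty vector cells and 5.14 and 4.94 in AR1-651 cells. BMPR2, the main type II receptor for BMPs, had RPKM of 6.97, 2.11, 2.84 and 2.49 in the same order. It was high in the empty vector library alone, which gave -1.36 with AIL and -1.05 with AR1-651 from the same control library, and the second of these became -0.27 with the length and GC trend removed. ACVR2B, at a lower level, was likewise highest in that library, with 1.27, 0.31, 0.37 and 0.28. Its changes of -0.79 and -0.73 were not called. RGMB, a BMP co-receptor, had 16.3, 22.1, 9.14 and 13.2. Of the extracellular antagonists tested, 0 of 3 were called, and the most abundant, TWSG1, had 16.3, 8.06, 7.78 and 9.11.

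SMAD1, a receptor SMAD of the BMP branch, was higher with AIL in both backgrounds. Its RPKM was 5.70 in empty vector cells, 13.9 once AIL was added, 5.29 in AR1-651 cells and 17.4 once these received AIL, changes of 1.15 and 1.55, of which the first was 0.98 with the length and GC trend removed. SMAD5, of the same branch, had 15.9, 13.4, 9.44 and 20.5, and SMAD4, the common partner, had 6.91, 11.8, 4.90 and 12.1. Their changes with AIL in AR1-651 cells, 1.04 and 1.15, made 3 of 5 receptor SMADs and SMAD4 at least 2-fold higher there, against 14.9% of all genes. These changes of SMAD5 and SMAD4 fell to 0.84 and 0.96 under median-ratio scaling and to 0.20 and 0.52 with the trend removed.

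Intracellular regulators other than the members, mostly brakes, did not move as one group with AIL. In empty vector cells 1 of 13 was at least 2-fold higher and 0 lower, against 9.53% and 9.03% of all genes. In AR1-651 cells 3 were higher and 1 lower, against 14.9% and 5.74% of all genes. TGIF1, a homeodomain corepressor of SMADs, had RPKM of 7.72 in empty vector cells, 20.9 once AIL was added, 8.18 in AR1-651 cells and 21.8 once these received AIL, changes of 1.33 and 1.31. SKIL, a SMAD corepressor, had 3.27, 5.61, 1.83 and 8.90. USP15, a deubiquitinase that acts on receptor SMADs, is counted in this list but is not a brake, and had 6.59, 8.68, 3.36 and 17.5. The changes of SKIL and USP15 with AIL in AR1-651 cells were 1.81 and 2.08. With the length and GC trend removed they were 1.00, just under 2-fold, for SKIL and 1.24 for USP15. SKI, a corepressor related to SKIL, had 28.7, 19.5, 12.8 and 9.99. FKBP1A, which encodes a protein that holds type I receptors inactive, was the most abundant of the list at 76.9, 54.0, 65.6 and 50.5.

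PMEPA1, known to be induced by both androgen and TGF-beta, was the only pathway gene at least 2-fold higher with AR1-651 (a pseudocount of 0.1 gave 2). Of all genes tested, 4.01% were. Its RPKM was 6.66 in empty vector cells, 4.48 once AIL was added, 22.9 in AR1-651 cells and 8.64 once these received AIL. It changed by 1.64 with AR1-651 and by -1.31 when AIL was added to AR1-651 cells. In the AR1-651 comparison 5 of the 56 pathway genes were at least 2-fold lower, with a median of -0.56, against 11.6% and a median of -0.30 for all genes. This count was 1 with the length and GC trend removed and 2 under median-ratio scaling, so most of these calls depend on the scaling.

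The E proteins are the partners that ID proteins bind. TCF3 had RPKM of 19.9 in empty vector cells, 11.2 once AIL was added, 9.13 in AR1-651 cells and 5.94 once these received AIL, and TCF12 had 11.5, 8.13, 3.70 and 9.34. Both were at least 2-fold lower in the library labelled AR1-651 (-1.04 and -1.41), but neither with the trend removed (-0.33 and -0.90). TCF4, the third E protein gene, was low at 1.40, 1.41, 0.59 and 2.09. With AIL the values of TCF3 were lower in both backgrounds (-0.77 and -0.55), whereas TCF12 changed by -0.45 in empty vector cells and 1.14 in AR1-651 cells, the latter 0.96 under median-ratio scaling and 0.56 with the trend removed.

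Other TGF-beta and BMP target genes held 5 of the 7 pathway genes called higher with AIL in empty vector cells. Of 10 tested, 5 were at least 2-fold higher and 0 lower, with a median of 0.89, against 9.53% and 9.03% of all genes. In AR1-651 cells 4 were higher and 0 lower, with a median of 0.74, against 14.9% and 5.74% of all genes. KLF10, an early TGF-beta response gene that encodes a zinc-finger factor, had RPKM of 8.44 in empty vector cells, 68.1 once AIL was added, 4.53 in AR1-651 cells and 55.6 once these received AIL. Its ratios with AIL were 8.07 (6.79 to 9.67) and 12.3 (9.83 to 15.5), so it moved in the direction of BAMBI and by more. MSX2, a homeobox gene downstream of BMPs, had 5.39, 20.3, 3.33 and 15.0.

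The cyclin-dependent kinase inhibitors CDKN1A and CDKN2B, both of which TGF-beta can induce, were also higher with AIL. CDKN1A had RPKM of 154.6 in empty vector cells, 551.1 once AIL was added, 131.9 in AR1-651 cells and 360.6 once these received AIL, and CDKN2B had 2.14, 8.02, 1.24 and 8.69. The fifth gene called in empty vector cells was HEY1, which falls outside the rule for named genes and was chosen after its values were seen. It had RPKM of 0.34 and 1.79 without and with AIL there (3 and 17 reads), a change of 1.06 that was 0.87 with the length and GC trend removed, and 1.24 and 2.64 in AR1-651 cells, a change of 0.70. GATA2, which encodes a zinc-finger transcription factor, did not follow them, with 129.9, 124.5, 42.9 and 59.7. It was lower in the libraries labelled AR1-651, by 1.58 without AIL and by 1.05 with it, and the latter was -0.99 under median-ratio scaling and -0.54 with the trend removed. Of the TGF-beta receptor genes, TGFBR2 (type II) had RPKM of 0.25, 0.09, 0.27 and 0.19 in the same order. TGFBR1 (type I) had 4.14, 3.28, 3.23 and 3.36. The ligand genes TGFB1 and TGFB2 reached at most 0.08 and 0.03, and TGFB3 is given above. What raised KLF10, CDKN1A and CDKN2B with AIL was not tested.

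**Figure D3:**
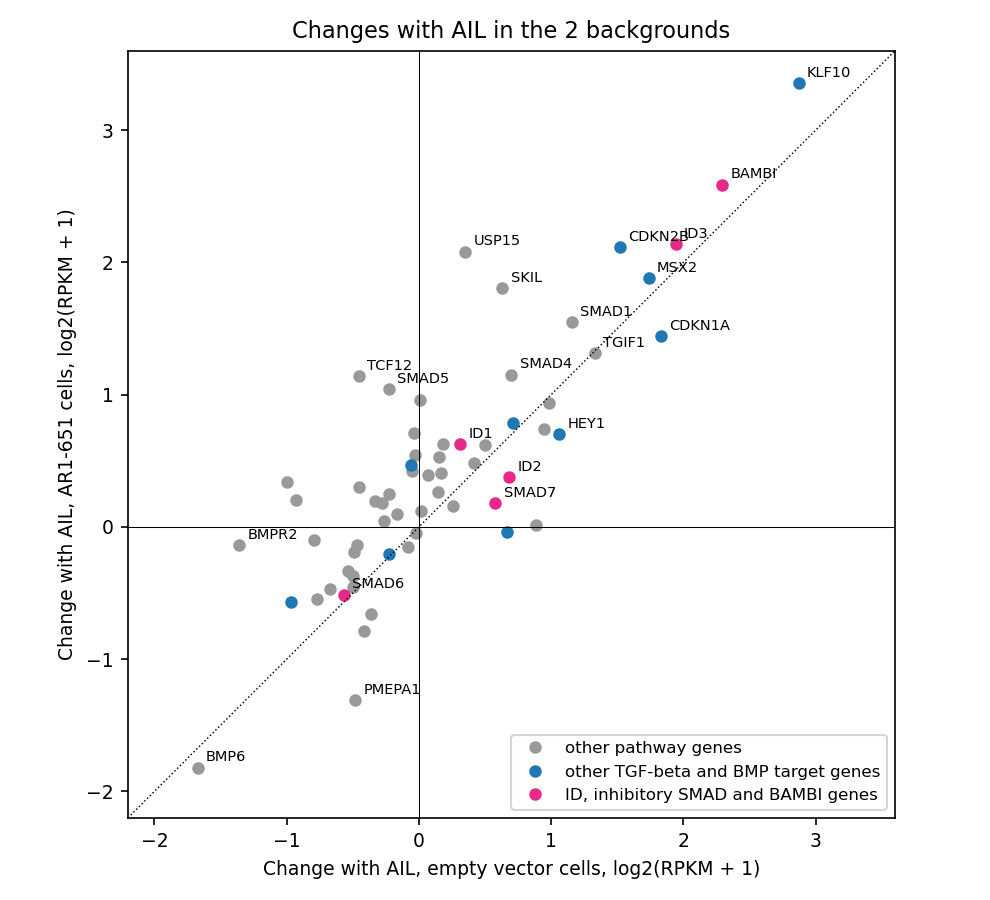
Change with AIL in log2(RPKM + 1) in empty vector cells (horizontal axis) and in AR1-651 cells (vertical axis) for the 6 members and 56 other pathway genes tested, with a dotted line where both changes are equal. BAMBI (2.29 and 2.59) and ID3 (1.94 and 2.14) lie at the upper right with KLF10, CDKN2B, MSX2 and CDKN1A, and BMP6 (-1.67 and -1.82) at the lower left.

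**Figure D4:**
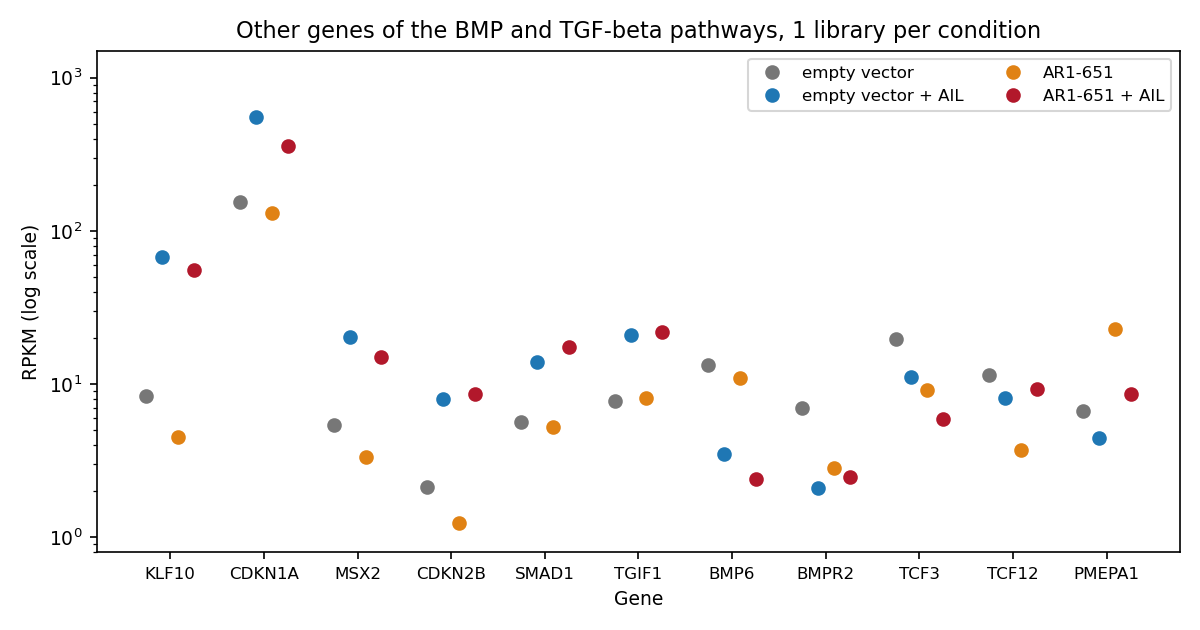
RPKM on a log axis of 11 pathway genes named in the text, 1 point per library and no error bars. KLF10, CDKN1A, MSX2, CDKN2B, SMAD1 and TGIF1 are higher in both libraries with AIL, BMP6 is lower in both, and PMEPA1 is highest in the AR1-651 library.

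The members did not share one pattern over the 4 libraries. Likeness was measured as the Euclidean distance between log2(RPKM + 1) profiles centred on each gene's mean over the 4 libraries, so that 0 means the same pattern. Among the 6 members tested, ID1 and ID2 were the closest pair (0.33), ID3 and BAMBI followed (0.68), and SMAD6 and BAMBI were the farthest apart (3.05). Adding 1 to RPKM flattens the profile of a weakly expressed gene, and that of ID1 rests on 6 to 12 reads per library. Its closeness to ID2 is therefore not a measured likeness. The genes nearest to each member were sought among 11871 genes that have a symbol and reached RPKM 1 in each library, for the 4 members that met the same limit.

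BBC3, RBBP8NL and IRX3 were nearest to BAMBI, at distances of 0.22, 0.30 and 0.37. BBC3 had RPKM of 9.57 in empty vector cells, 53.8 once AIL was added, 5.18 in AR1-651 cells and 32.9 once these received AIL. UNC119 (0.045), ANKS3 (0.049) and STX4 (0.049) were nearest to ID2. PRPS2 (0.025), ATG7 (0.027) and TMEM59 (0.041) were nearest to SMAD6, and ZNF668 (0.073), PPP1R12C (0.077) and PDLIM7 (0.084) to SMAD7. Each profile has only 4 points, and the distances are a description of these libraries.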

How the data were processed

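The authors sequenced 1 library per condition and deposited RPKM per gene, rounded to 2 decimals. The submitters' processing notes name BWA 0.7.10-r789 and hg19 without roles, and the counting tool and annotation release are not given in the sources used here. Members and lists were chosen with earlier results of these data known. Symbols were matched from a RefSeq gene table (19703 of 19801 genes), transcript lengths and GC content from GENCODE release 29, and promoters from RefSeq GRCh38.p14. Changes were computed as differences of log2(RPKM + 1) for genes whose RPKM reached 1 in any library. Intervals of RPKM ratios are exact (Clopper-Pearson) 95% intervals on the estimated reads. Named were all 7 members, in each pathway list the gene with the highest mean RPKM and up to 3 with the largest changes past 2-fold per comparison, the 3 E proteins and the 3 nearest genes. The read estimate and the removal of length and GC trends (polynomial of degree 3) were added after seeing the data. Calculations were tested on simulated data and used Python 3.11.15, NumPy 2.4.6, pandas 2.3.3, SciPy 1.17.1 and matplotlib 3.10.9. One marker gene is not reported here.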

Additional observations from a re-analysis of the deposited data

Results flagged for a closer look

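For 2 members the change with AR1-651 had opposite signs without and with AIL. ID1 changed by -0.059 without AIL and by 0.26 with AIL, and ID2 by 0.16 and -0.15. The difference was not tested, since each condition is 1 library, and the counting intervals of all 4 ratios included 1. The opposite signs depend on the scaling: ID1 changed by 0.074 and 0.29 under median-ratio scaling, and ID2 by -0.028 and -0.42 with the length and GC trend removed.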

How the results depend on the processing

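None of the values turned in sign from a called change. Counts that moved by over 1.5 times are given by setting, against the main value in parentheses, for AR1-651 against empty vector (A), empty vector + AIL against empty vector (B), AR1-651 + AIL against AR1-651 (C) and AR1-651 + AIL against empty vector + AIL (D). At a 1.5-fold threshold, genes higher numbered 1570 (586) in A, 3064 (1394) in B, 4183 (2184) in C and 1130 (214) in D, genes lower 4720 (1701), 3233 (1321), 2145 (839) and 2271 (517), pathway genes higher 2 (1), 14 (7), 19 (11) and 3 (0), pathway genes lower 26 (5), 8 (2), 4 (2) and 8 (2), and members lower in D 2 (0). With a pseudocount of 0.1, genes higher in D were 509, genes lower 3047 in A, 2139 in B, 1331 in C and 1160 in D, pathway genes higher 2 in A and 1 in D, pathway genes lower 16 in A and 6 in B, and members lower 2 (1) in A and 1 (0) in D. Under median-ratio scaling, genes higher in A were 1073, genes lower 817 in A and 1264 in C, pathway genes lower 2 in A and 0 in D, and members lower 0 in A. With the length and GC trend removed, genes higher in C were 1162, genes lower 523 in A and 189 in D, pathway genes higher 7 in C and 1 in D, and pathway genes lower 1 in A and 0 in D. Without ribosomal protein genes, genes higher in A were 382 and pathway genes lower 8 in A and 5 in B. With RPKM of at least 5, genes higher in D were 112, pathway genes lower in D 1, and the members' median 1.31 (0.63) in B and 1.26 (0.50) in C, from fewer members. The cause was not tested.

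The calls of BAMBI and ID3 with AIL held under each setting in both backgrounds, BAMBI between 2.19 and 2.73 and ID3 between 1.89 and 3.61. For ID3 the main filter was passed only in libraries with AIL, so its direction was built in. At a pseudocount of 0.1, ID1 reached 1.01 in C, ID3 -1.19 in A and SMAD7 -1.09 in D. No paired analysis was possible because each condition is 1 library, and for the same reason no replicate could be left out. At most 86 reads lay behind each member value other than those of BAMBI.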
